A study of Mus musculus with 40 samples.

Results

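The measurements described here are the RNA levels of 9 genes of adenosine and ATP signalling in the mouse striatum, taken as the rows of the deposited count table whose gene symbol matched a list of 9 names. They are 9 of the 24060 symbols in the table, and each was matched once. By role they were 2 adenosine receptors (Adora1 and Adora2b), 2 receptors for ATP or ADP (P2ry1 and P2rx7), 3 enzymes that break down nucleotides outside the cell (Entpd1, Entpd2 and Nt5e), and the enzyme and the carrier that clear adenosine (Adk and Slc29a1). By RefSeq positions on GRCm38.p6, the receptor genes are Adora1 at chr1:134199215-134235457 (minus strand), Adora2b at chr11:62248984-62266452 (plus strand), P2ry1 at chr3:61002785-61008982 (plus strand) and P2rx7 at chr5:122643927-122692336 (plus strand). The enzymes and the carrier are Entpd1 at chr19:40612366-40741602 (plus strand), Entpd2 at chr2:25395874-25401323 (plus strand), Nt5e at chr9:88327609-88372089 (plus strand), Adk at chr14:21052574-21448569 (plus strand) and Slc29a1 at chr17:45585200-45599618 (minus strand). All 9 passed the filter on low counts in every comparison.

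Neurons and glia release ATP, which acts on P2X channels and on G-protein-coupled P2Y receptors. Ectonucleotidases on the cell surface shorten ATP and ADP to AMP, CD73 (the product of Nt5e) turns AMP into adenosine, and adenosine acts on its own receptors until an equilibrative carrier takes it up and adenosine kinase converts it back to AMP. In the striatum this system is best known for the receptor encoded by Adora2a on the indirect-pathway medium spiny neurons, for inhibitory A1 receptors on nerve terminals, and for the purine responses and adenosine kinase of astrocytes.

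RNA was measured in 40 libraries, 4 in each of 10 groups. RiboTag libraries came from mice whose striatum had received an AAV for an HA-tagged ribosomal protein (Rpl22-HA). Each pairs an IP of tagged ribosomes with an input, which holds RNA of all cells in the tissue. The IP is meant to enrich RNA on the ribosomes of the tagged cells and can also hold RNA of other cells. The Control cohort (groups labelled Control, C57/BL6NTac) and the Syn cohort (wild type, C57/BL6NTac, tag under the human synapsin-1 promoter, which drives expression in neurons) were injected at 6 weeks of age. The SAPAP3 cohort compared WT mice (C57/BL6J) with mice lacking Dlgap3, the gene of the synaptic scaffold SAPAP3 (C57/BL6J-Dlgap3 KO, injected at 4.5 months), with both IP and input in each genotype. Bulk striatal RNA came from WT and SAPAP3 KO mice that are both labelled C57/BL6NTac, with no tag and no stated age. The labels name an astrocyte tag (GfaABC1D promoter) and a neuron tag (hSyn1) for the IP groups of the series as a whole, and do not say which of them the Control and the SAPAP3 cohorts carried. The age of the WT mice of the SAPAP3 cohort at injection is not given in the sources used here.

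The libraries held between 23438112 and 84109800 counted reads. Dlgap3 was lower in KO than in WT libraries without overlap in inputs, IPs and bulk striatum (log2 fold change -1.19, -1.40 and -1.14), with an adjusted p-value of 0.0070, 0.028 and 0.32 by edgeR, so that the bulk difference was not called although its 95% interval ran from -1.46 to -0.82. Rpl22 was higher in all 4 IPs, by log2 fold changes from 1.85 to 2.85. Of 10 astrocyte markers, 10 passed the test as higher in the Control IP than in its input (median log2 fold change 2.97), and 10 did so in the WT and 10 in the KO IP of the SAPAP3 cohort (medians 2.22 and 2.33). In the Syn IP 0 of them were higher and 1 was lower. Of the 9 neuron markers tested, 3 were higher in the Syn IP. In the Control, WT and KO IPs 0 of the 9 were higher and only 1 was lower in each (medians -0.78, -0.55 and -0.50). All 10 microglial markers were lower in each of the 4 IPs. Of the ependymal markers tested, 8 of 8 were higher in the Control IP, 8 of 9 in the WT IP and 8 of 9 in the KO IP, where 1 was lower. Of 10 oligodendrocyte markers, 4 were higher in the WT and 4 in the KO IP, while 1 was lower in the Control and 10 in the Syn IP. Of 10 markers of oligodendrocyte precursors, 1 was higher in the Control, 1 in the WT and 5 in the KO IP, and 9 were lower in the Syn IP. Transcripts of the X and Y chromosomes marked the 8 Control libraries as male and the 8 Syn libraries as female, so cohort, sex and tagged cell type cannot be told apart between them. Xist counts exceeded those of the Y genes in 1 of 4 libraries of each group of the SAPAP3 cohort, and in bulk striatum in 1 of 4 WT and 0 of 4 KO libraries. The part of sex in the bulk comparison was not tested as a term. When any 1 bulk library was left out, 0 of the 9 genes were called, with 0 of all genes higher and 0 to 1 lower. These fits call almost no gene and cannot show the part of sex. The input of WT replicate 1 in the SAPAP3 cohort stood apart: the level of Adora2a, an adenosine receptor of indirect-pathway neurons, was 368 CPM (counts scaled to the same total in every library) against 172 to 179 in the other 3 WT inputs. Values without it are given beside the WT enrichment and the KO over WT difference of the inputs. Striata were homogenised individually, and the Syn IPs and inputs of the same number carry different animal labels.

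Levels are given first as CPM of all counted reads, and as FPKM (CPM per kilobase of exon) where genes are compared with each other. Adora1, the inhibitory A1 receptor, had the highest FPKM of the 9 genes in all 4 groups of inputs and in both bulk groups, from 27.4 ± 0.592 (SD, n = 4) in the Control inputs to 35.3 ± 1.22 in the KO inputs. Adora2b, the low-affinity A2B receptor, had the lowest FPKM in these 6 groups, from 1.35 ± 0.153 in bulk KO to 1.84 ± 0.206 in the Syn inputs. In the 3 IPs with high astrocyte markers, Adk, which phosphorylates adenosine to AMP, had the highest FPKM instead (28.0 ± 1.99 in the Control, 28.4 ± 2.44 in the WT and 29.5 ± 3.60 in the KO IP), and Entpd1, an ATP and ADP hydrolase, the lowest (2.65 ± 0.0775, 3.11 ± 0.157 and 3.02 ± 0.174). The Syn IP had the same 3 genes at its top as the Syn inputs, with Adora1 at 30.0 ± 3.17, Adk at 11.5 ± 0.784 and Nt5e at 6.34 ± 0.438 FPKM, while P2rx7 was last at 0.875 ± 0.0988.

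**Figure D1:**
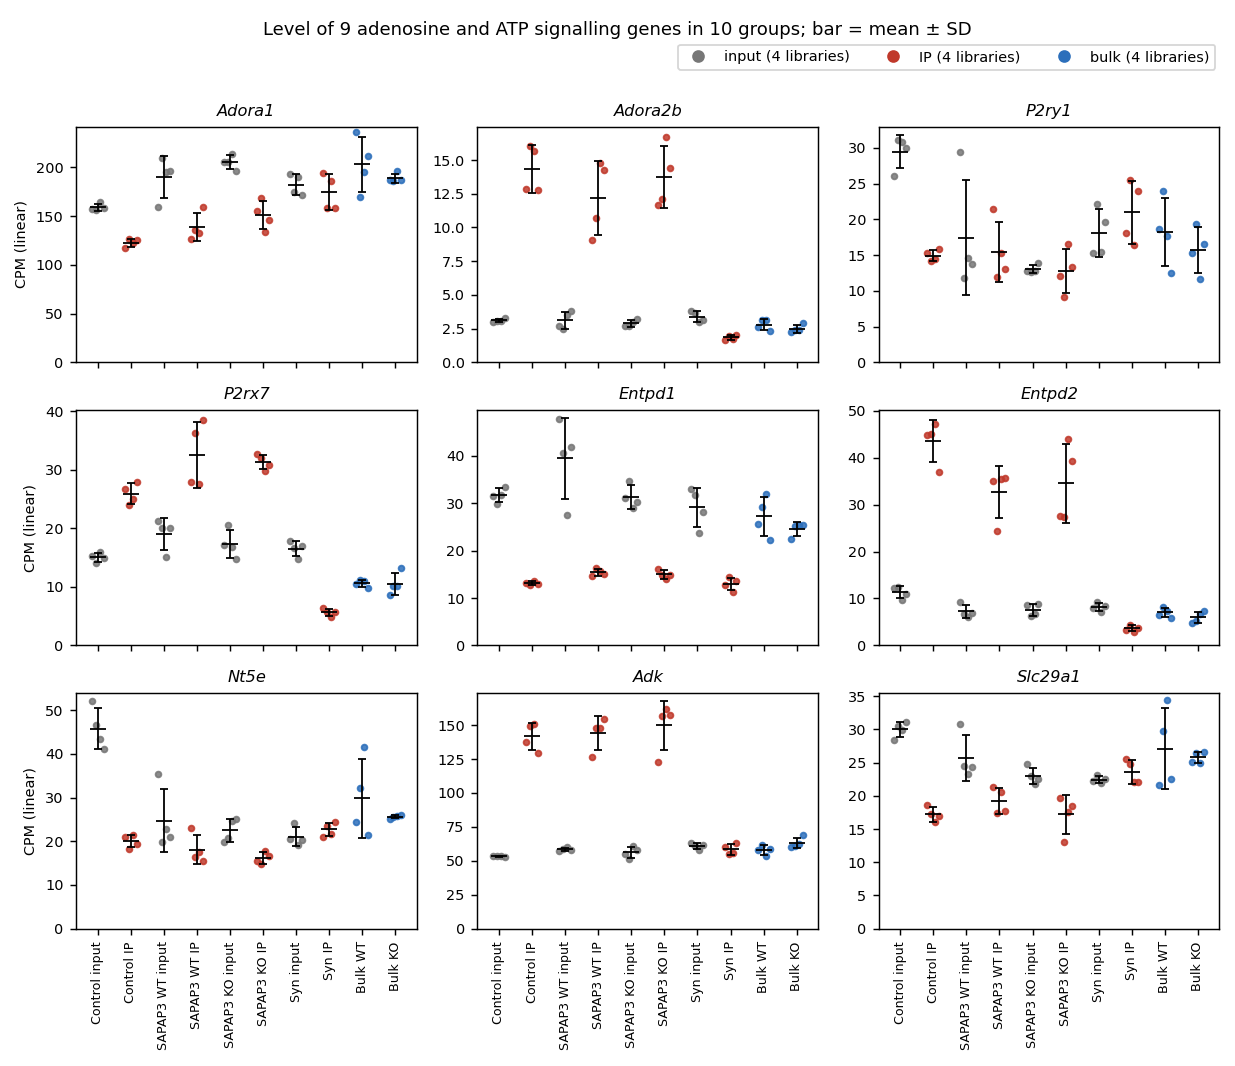
Each panel plots the CPM of 1 gene (linear axis from 0) in 10 groups of 4 libraries, with grey points for inputs, red for IPs and blue for bulk striatum, and black bars for the mean ± SD. Adora2b, Entpd2 and Adk sit far above their inputs in the Control and SAPAP3 IPs and not in the Syn IP, Entpd1 is lower in every IP, and the highest P2ry1 point of the SAPAP3 WT inputs (29.4 CPM) is replicate 1.

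The first comparison asks which of these transcripts are enriched on the ribosomes of the tagged cells. A gene was called when the adjusted p-value of edgeR's quasi-likelihood test was under 0.05 and its log2 fold change of IP over input was above 1 or below -1. In the Control cohort Adora2b, Entpd2, Adk and P2rx7 were called higher and Entpd1 was called lower, so that 4 of 9 were higher, against 13.4% of the 15476 genes tested, and 1 of 9 was lower, against 13.5%. In the WT IP of the SAPAP3 cohort Adora2b, Entpd2 and Adk were higher and Entpd1 was lower (background 10.9% higher and 12.1% lower). In the KO IP the 4 genes of the Control cohort were higher and 0 were lower (background 12.3% and 11.5%). In the Syn cohort 0 of 9 were higher and P2rx7 alone was lower (background 0.420% and 15.8%). The 9 genes were chosen with earlier results of these data known, so these shares describe them and do not test them as a set.

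The median log2 fold change of the 9 genes was -0.15 in the Control cohort, 0.0036 in WT, 0.17 in KO and 0.14 in the Syn cohort, and that of all genes tested was -0.025, -0.032, -0.0036 and -0.0023. With no fold limit, 9 of 9 genes had an adjusted p-value under 0.05 in the Control cohort (background 80.4%), 6 in WT (67.3%), 7 in KO (71.9%) and 8 in the Syn cohort (71.3%). After TMM scaling the 4 IPs and 4 inputs did not overlap for 9 of 9 genes in the Control cohort (background 75.1%), and for 5 each in WT (61.2%), KO (66.9%) and the Syn cohort (65.9%). The tests use library sizes scaled by TMM. Scaled to total counts, as CPM is, the median log2 fold change of all genes was -0.25 in the Control cohort, -0.20 in WT, -0.21 in KO and -0.21 in the Syn cohort, so that CPM of an IP reads lower against its input than the fold change does.

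**Figure D2:**
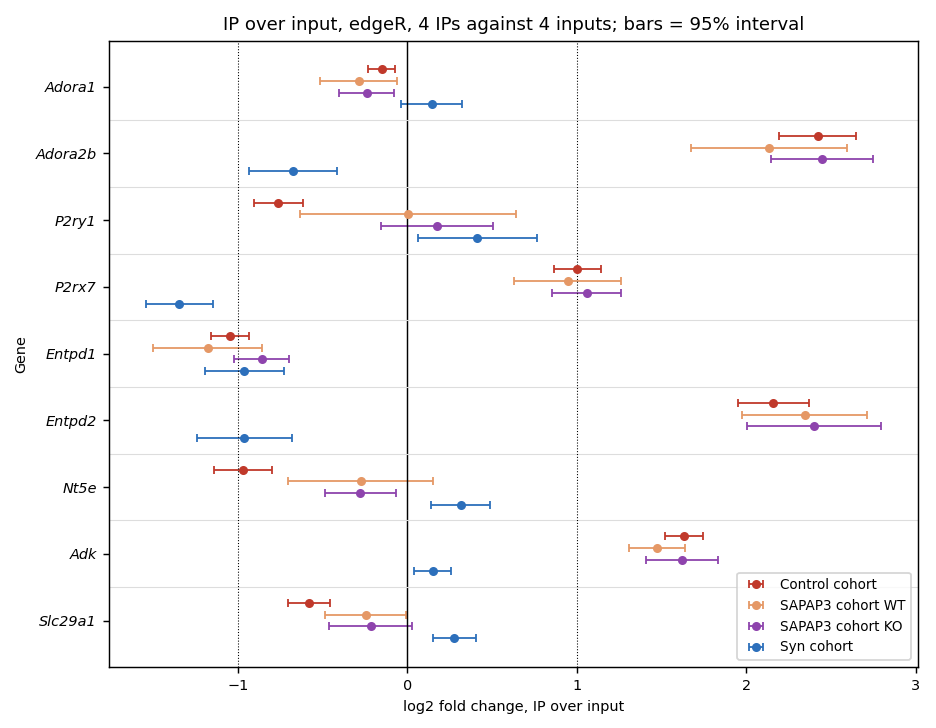
Points are log2 fold changes of IP over input (edgeR, TMM-scaled, 4 IPs against 4 inputs) for the 9 genes, coloured by cohort, with bars for the 95% interval and dotted lines at -1 and 1. Adora2b and Entpd2 lie above 2 in the Control, WT and KO comparisons and below 0 in the Syn cohort, and Entpd1 lies near -1 in all 4.

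Adora2b encodes a Gs-coupled receptor that responds to high adenosine. Its CPM was 2.98, 3.10, 3.10 and 3.28 in the Control inputs and 12.8, 16.0, 15.7 and 12.8 in the IPs of the same mice. Every IP was above every input, and the log2 fold change was 2.42 ± 0.103 (SE), a 5.36-fold difference (adjusted p = 1.5e-09, edgeR), larger than that of 98.4% of the genes tested.

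In the SAPAP3 cohort Adora2b measured 2.69, 2.47, 3.55 and 3.77 CPM in the WT inputs and 9.07, 10.7, 14.8 and 14.2 in the WT IPs. The KO inputs gave 2.69, 2.71, 2.97 and 3.24 CPM, and the KO IPs 11.7, 12.1, 16.7 and 14.4. Neither genotype showed overlap between IP and input, with log2 fold changes of 2.13 ± 0.205 and 2.45 ± 0.137. The Syn cohort showed the opposite order: inputs held 3.78, 3.65, 2.98 and 3.17 CPM and IPs 1.69, 1.98, 1.70 and 2.03, without overlap, a log2 fold change of -0.68 ± 0.117 that passed the adjusted p-value (4.6e-04) and not the fold limit. The means of the 10 groups fell into a high set of 3 IPs (12.2 to 14.3 CPM), a run of 4 inputs and 2 bulk groups (2.48 to 3.40 CPM) whose neighbours overlapped, and the Syn IP at 1.85 ± 0.180 CPM, below all libraries of bulk KO, its neighbour in the order.

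Adora1 encodes the Gi-coupled A1 receptor. Its CPM was 158, 157, 164 and 158 in the Control inputs and 117, 126, 122 and 126 in the IPs. The IPs were lower without overlap, but by a log2 fold change of -0.15 ± 0.0356 after TMM scaling (adjusted p = 0.0020). The corresponding values were -0.29 ± 0.102 in WT and -0.24 ± 0.0734 in KO, where TMM-scaled groups overlapped. In the Syn cohort the inputs (193, 175, 190 and 171 CPM) and the IPs (194, 159, 186 and 159 CPM) overlapped, and the log2 fold change of 0.14 had a 95% interval from -0.036 to 0.32 (adjusted p = 0.14; 0.0025 with the replicate number as a block). Adora1 shares 1425 exon bases with Mybph on the opposite strand. The labels name a strand-specific library kit and the study's methods name another kit. The strand setting of the counting is not given in the sources used here. It is therefore not known whether reads from the shared bases were counted for Adora1, for Mybph or for neither. The order of the 10 group means ran from the KO inputs (206 ± 7.11 CPM) to the Control IP (123 ± 4.21), and each group overlapped the next except the Control IP.

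P2rx7 encodes the P2X7 channel, which opens at high ATP. Its CPM was 15.3, 14.1, 16.0 and 14.9 in the Control inputs and 26.8, 24.0, 25.0 and 27.9 in the IPs. These groups did not overlap, and the log2 fold change of 1.00 ± 0.0630 lay just past the limit (adjusted p = 4.4e-08). Without input replicate 2, input replicate 4 or IP replicate 4 of the Control cohort it was 0.98, 0.996 and 0.99, short of the limit.

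P2rx7 measured 21.2, 19.997, 15.1 and 19.97 CPM in the WT inputs of the SAPAP3 cohort and 27.9, 36.2, 27.5 and 38.6 in the WT IPs. The KO inputs gave 17.1, 20.5, 16.8 and 14.8 CPM and the KO IPs 32.6, 31.9, 29.8 and 30.8. Each IP was above each input of its genotype, and the log2 fold changes of 0.95 ± 0.141 in WT and 1.06 ± 0.0916 in KO fell on either side of the limit. The KO value was 0.99 without input replicate 4. Without WT replicate 1, IP and input together, the WT value was 1.10 and past it.

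P2rx7 in the Syn cohort was the only one of the 9 genes called, and it was lower in the IP. Inputs held 17.8, 16.6, 14.7 and 16.9 CPM and IPs 6.37, 5.67, 4.82 and 5.73. All 4 IPs were far below all 4 inputs, a log2 fold change of -1.35 ± 0.0880 or 0.39 times the input (adjusted p = 7.1e-07). In the order of the 10 group means the WT and KO IPs of the SAPAP3 cohort overlapped at the top (32.5 ± 5.69 and 31.3 ± 1.24 CPM). The Control IP came next (25.9 ± 1.73), below all KO IPs and overlapping the WT IPs (lowest 27.5 CPM against a highest Control IP of 27.9). The 4 groups of inputs (15.1 to 19.0), the 2 bulk groups (10.6 and 10.5) and the Syn IP (5.64 ± 0.637) followed, each set without overlap with the one above. In tissue RNA, fewer cells of a type and less RNA per cell cannot be told apart. Summed microglial markers were also lower in bulk (458 to 563 CPM per library) than in the inputs (746 to 1712 CPM), and their part in this difference was not tested. The small RNA gene Mir8115 lies in a P2rx7 exon on the same strand and covers 119 of its bases.

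P2ry1 encodes the ADP receptor P2Y1. The Control inputs had the highest mean of the 10 groups (29.5 ± 2.36 CPM), without overlap with the Syn IP next in order (21.0 ± 4.41) but reached by replicate 1 of the WT inputs (29.4 CPM), and the lowest was the KO IP (12.8 ± 3.09). In the Control cohort it measured 26.0, 31.1, 30.8 and 29.9 CPM in the inputs and 15.3, 14.2, 14.4 and 15.8 in the IPs. The IPs lay below the inputs without overlap, a log2 fold change of -0.76 ± 0.0657 that passed the adjusted p-value (7.1e-07) and not the fold limit. Adora2a also fell in that IP, by 1.45 on the log2 scale.

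The WT inputs of the SAPAP3 cohort gave P2ry1 values of 29.4, 11.9, 14.7 and 13.8 CPM, and the WT IPs 21.4, 11.97, 15.3 and 13.1. Replicate 1 was the highest library in both, and IP and input overlapped. The log2 fold change was 0.0036 with a 95% interval from -0.64 to 0.64, and 0.21 (adjusted p = 0.18) without replicate 1. In KO it was 0.17 (interval -0.16 to 0.50). In the Syn cohort the inputs (15.3, 22.1, 15.5 and 19.6 CPM) and IPs (18.1, 25.5, 16.5 and 24.0 CPM) overlapped, and the log2 fold change of 0.41 ± 0.158 passed the adjusted p-value (0.038). Each Syn IP was above the input of the same number.

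Entpd2 encodes NTPDase2, which turns ATP mainly into ADP. The Control inputs held 12.3, 12.5, 9.73 and 11.0 CPM and the IPs 44.8, 45.1, 47.1 and 36.9. Every IP was above every input, with a log2 fold change of 2.16 ± 0.0946, or 4.47-fold (adjusted p = 2.0e-09). In the SAPAP3 cohort Entpd2 measured 9.30, 6.69, 6.09 and 6.98 CPM in the WT inputs and 35.0, 24.3, 35.5 and 35.7 in the WT IPs.

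The KO inputs gave 8.53, 6.25, 6.63 and 8.74 CPM and the KO IPs 27.5, 27.4, 43.9 and 39.3. Both genotypes showed separate groups, with log2 fold changes of 2.34 ± 0.165 and 2.40 ± 0.180. In the Syn cohort the inputs (7.88, 9.16, 7.16 and 8.31 CPM) were all above the IPs (3.28, 4.44, 2.97 and 3.80 CPM), and the log2 fold change of -0.96 ± 0.126 passed the adjusted p-value (6.5e-05) and just missed the fold limit. Among the 10 groups the Control inputs (11.4 ± 1.27 CPM) stood above the other inputs without overlap with the Syn inputs next in order, and the Syn IP (3.63 ± 0.643 CPM) was lowest without overlap.

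Entpd1 encodes CD39, which takes ATP and ADP to AMP and is abundant on microglia and blood vessels. It differed from Entpd2 in being lower in all 4 IPs. The Control inputs held 31.6, 29.8, 31.8 and 33.5 CPM and the IPs 13.2, 12.8, 13.7 and 12.9, without overlap, and it fell by 1.05 ± 0.0503 on the log2 scale (adjusted p = 4.4e-09).

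Entpd1 measured 47.7, 40.7, 27.6 and 41.8 CPM in the WT inputs of the SAPAP3 cohort and 14.6, 16.3, 15.8 and 15.0 in the WT IPs. The KO inputs held 31.1, 34.8, 29.0 and 30.2 CPM and the KO IPs 16.2, 14.8, 14.1 and 14.9. Groups did not overlap in either genotype, and the log2 fold change was -1.18 ± 0.143 in WT, past the limit (-1.02 without replicate 1), and -0.86 ± 0.0736 in KO, short of it. The Syn cohort gave 33.0, 31.7, 23.7 and 28.2 CPM in the inputs and 12.8, 14.4, 11.3 and 13.5 in the IPs, again without overlap, with a log2 fold change of -0.96 ± 0.105 (adjusted p = 1.8e-05) that missed the limit by little. The summed microglial markers went from 937 to 1171 CPM in the Control inputs to 47.7 to 54.0 in the Control IPs, with 10 of 10 markers lower by a median of -5.61 on the log2 scale, and the summed endothelial markers from 150 to 190 CPM to 19.8 to 22.4, with 10 of 10 lower (median -3.47). Mural markers, of other cells of the vessel wall, did not fall as a set in the Control IPs. Of the 9 tested, 3 were higher and 4 lower, with sums of 159 to 168 CPM in the inputs and 171 to 182 in the IPs. No microglial or endothelial marker was at 0 in all libraries of a group. The part of these cells in the Entpd1 values was not tested. The order of the group means put the 4 inputs and the 2 bulk groups (24.6 to 39.4 CPM) above the 4 IPs (12.99 to 15.4 CPM), with no overlap between the lowest of the former, bulk KO, and the highest of the latter, the WT IP.

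Nt5e encodes CD73, which makes adenosine from AMP outside the cell. It measured 52.2, 46.6, 43.5 and 41.1 CPM in the Control inputs and 21.0, 18.3, 21.3 and 19.5 in the IPs. The groups were far apart, and the log2 fold change of -0.97 ± 0.0782 passed the adjusted p-value (3.8e-07) but not the limit, which it passed without input replicate 4 (-1.02). In the SAPAP3 cohort the WT inputs held 35.4, 19.8, 22.8 and 20.9 CPM and the WT IPs 23.0, 16.3, 17.6 and 15.5.

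Replicate 1 was again highest on both sides, and its IP lay within the range of the inputs. The log2 fold change was -0.28 in WT (adjusted p = 0.22; 0.012 with the mouse as a block; -0.16 with adjusted p = 0.15 without replicate 1) and -0.28 in KO (adjusted p = 0.021). In the Syn cohort inputs (20.6, 24.1, 19.2 and 20.2 CPM) and IPs (21.1, 23.5, 21.8 and 24.5 CPM) overlapped, with a log2 fold change of 0.31 ± 0.0769 (adjusted p = 0.0041). The Control inputs had the highest mean of the 10 groups (45.8 ± 4.77 CPM), and their range touched that of bulk WT, which ran from 21.4 to 41.7 CPM.

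Adk encodes adenosine kinase. The Control inputs held 53.5, 53.4, 53.4 and 52.6 CPM and the IPs 137, 149, 151 and 130. All IPs were above all inputs, by a log2 fold change of 1.64 ± 0.0512 or 3.11-fold (adjusted p = 1.3e-10). The SAPAP3 cohort gave 57.3, 58.9, 59.8 and 57.7 CPM in the WT inputs and 126, 148, 148 and 155 in the WT IPs.

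The KO inputs held 54.7, 51.2, 60.9 and 57.7 CPM and the KO IPs 123, 157, 162 and 158. Groups were separate in both genotypes, with log2 fold changes of 1.48 ± 0.0737 and 1.62 ± 0.0969. Adk in the Syn cohort was at 62.8, 60.6, 57.9 and 61.9 CPM in the inputs and 60.3, 54.6, 56.0 and 63.3 in the IPs, which overlapped, and the log2 fold change was 0.15 ± 0.0486 (adjusted p = 0.018), changing sign to -0.055 when scaled to total counts. Adk varied little outside the 3 high IPs, since the means of the other 7 groups lay between 53.2 and 63.1 CPM and each overlapped its neighbour in the order.

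Slc29a1 encodes ENT1, the equilibrative carrier that moves adenosine across the membrane. Its CPM was 28.4, 30.5, 30.0 and 31.2 in the Control inputs and 18.7, 17.3, 16.0 and 16.9 in the IPs. The IPs were lower without overlap by a log2 fold change of -0.58 ± 0.0561 (adjusted p = 1.9e-06). In the SAPAP3 cohort Slc29a1 ran from 23.3 to 30.9 CPM in the WT inputs, from 17.4 to 21.3 in the WT IPs, from 21.8 to 24.7 in the KO inputs and from 12.996 to 19.7 in the KO IPs. The log2 fold changes of -0.25 in WT (95% interval -0.49 to -0.0064, adjusted p = 0.065) and -0.22 in KO (interval -0.46 to 0.026, adjusted p = 0.098) did not pass, and both did with the mouse as a block (0.018 and 0.041). WT replicate 1 was the highest input of Slc29a1 (30.9 CPM against 23.3 to 24.5), and without it, IP and input together, the WT value was -0.16 (adjusted p = 0.13). Of the genes not given without this replicate so far, Adora1 was then at -0.29, Adora2b at 2.22, Entpd2 at 2.48 and Adk at 1.56 in WT, each with an adjusted p-value under 0.05. For the Syn cohort the log2 fold change was 0.28 ± 0.0566 (adjusted p = 0.0013), with inputs of 21.9 to 23.1 CPM and IPs of 22.1 to 25.6 CPM that overlapped in CPM and not after TMM scaling. The 10 group means ran from 30.0 ± 1.17 CPM in the Control inputs to 17.2 ± 2.93 in the KO IP, and the 6 groups of inputs and bulk striatum and the Syn IP lay above the other 3 IPs. With TMM scaling over all 40 libraries the mean of the WT IP (20.9) was above that of the Syn inputs (20.6).

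Adora2b, Entpd2 and P2rx7 were higher in the Control IP and lower in the Syn IP, and the 250 bases before the start of each are shown to let their promoters be compared. They come from the RefSeq promoter table for GRCm38.p6, the assembly of the mm10 build used by the authors, and are written 5′ to 3′ on the plus strand, on which all 3 genes lie, at chr11:62248734-62248983, chr2:25395624-25395873 and chr5:122643677-122643926. Capitals mark matches on either strand to 5 motifs, the GC box (GGGCGG), the CCAAT box (CCAAT), the TATA box (TATAAA), an NFI half-site (TTGGCA) and a SOX core (ACAAAG). The reverse complement of the NFI half-site can overlap a CCAAT box. Where RefSeq lists more than 1 start, as for P2rx7 with 2, the outermost was used. Which start the measured RNA came from was not tested.
Adora2b: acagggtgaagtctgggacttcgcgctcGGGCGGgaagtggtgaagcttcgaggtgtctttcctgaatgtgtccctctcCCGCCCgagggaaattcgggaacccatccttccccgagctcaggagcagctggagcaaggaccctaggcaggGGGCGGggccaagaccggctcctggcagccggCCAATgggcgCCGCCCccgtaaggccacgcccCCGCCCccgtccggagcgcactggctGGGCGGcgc
Entpd2: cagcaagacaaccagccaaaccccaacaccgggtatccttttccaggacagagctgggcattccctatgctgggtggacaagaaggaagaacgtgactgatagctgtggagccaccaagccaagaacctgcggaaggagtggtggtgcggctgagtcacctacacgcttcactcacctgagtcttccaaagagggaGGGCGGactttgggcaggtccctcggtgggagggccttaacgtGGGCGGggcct
P2rx7: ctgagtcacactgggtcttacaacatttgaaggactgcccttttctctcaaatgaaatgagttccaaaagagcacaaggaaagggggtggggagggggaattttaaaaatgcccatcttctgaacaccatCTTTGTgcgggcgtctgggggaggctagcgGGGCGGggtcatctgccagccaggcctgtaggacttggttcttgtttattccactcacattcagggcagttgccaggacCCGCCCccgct
Adora2b held 6 GC boxes and 1 CCAAT box, Entpd2 held 2 GC boxes, and P2rx7 held 2 GC boxes and 1 SOX core. Of 32536 distinct windows of this length before a start, 33.0% held a GC box, 33.8% a CCAAT box, 12.3% a TATA box, 12.3% an NFI half-site and 16.5% a SOX core. The windows of the 3 genes differed in base composition, with 69.6%, 59.2% and 53.6% G and C (median of all windows 52.4%) and 22, 9 and 6 CpG. Over all 9 genes, 7 windows held a GC box and 0 a TATA box. A match is a description of these letters and not evidence of binding.

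The second comparison asks whether enrichment differed between the Control and the Syn cohort, as the interaction of cohort with IP against input. Of the 9 genes, 8 had an adjusted p-value under 0.05, against 70.1% of the 16371 genes tested. Adora2b (-3.10 ± 0.148), Entpd2 (-3.12 ± 0.161), P2rx7 (-2.35 ± 0.108) and Adk (-1.49 ± 0.0715) had the lower log2 enrichment in the Syn cohort. Nt5e (1.29 ± 0.114), P2ry1 (1.18 ± 0.183), Slc29a1 (0.86 ± 0.0796) and Adora1 (0.29 ± 0.0938) had the higher one. Adora1 lost its call with a filter on FPKM above 5 in at least 4 of the compared libraries, of any group (0.16, adjusted p = 0.13 by edgeR). The study's own filter asks for 4 samples per condition and was not run. In each direction 4 of 9 were called, against 35.8% of all genes higher and 34.3% lower. Entpd1 did not pass, with a difference of 0.085 and a 95% interval from -0.17 to 0.34. The median of the 9 differences was 0.085 and that of all genes 0.016. Between the cohorts 10 of 10 astrocyte markers had the lower enrichment in Syn (median -3.37) and 8 of 9 neuron markers the higher one (median 1.17). Of 10 microglial markers 9 also had the higher one (median 1.13) and 1 the lower. All 10 oligodendrocyte markers, 9 of 10 precursor markers and 8 of 9 ependymal markers had the lower one, and 1 precursor marker the higher. Endothelial markers were split (2 higher and 3 lower of 10), as were mural ones (5 and 5). The part of each cell type was not tested.

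**Figure D3:**
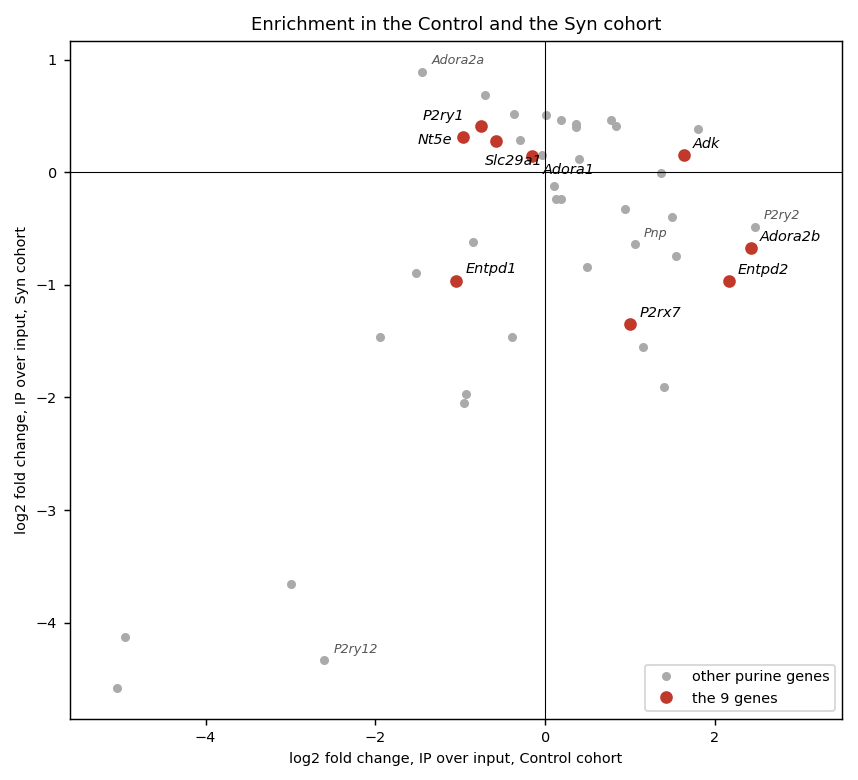
Each point is a gene placed by its log2 fold change of IP over input in the Control cohort (horizontal) and in the Syn cohort (vertical), red and named for the 9 genes and grey for 35 other purine genes tested in both. Adora2b, Entpd2 and P2rx7 fall in the lower right, Adk lies to the right near 0, Entpd1 is in the lower left, and Nt5e, P2ry1, Slc29a1 and Adora1 are in the upper left.

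The third comparison asks what changes with loss of SAPAP3. Here the call needed only an adjusted p-value below 0.05, whatever the fold change. None of the 9 genes was called between KO and WT in inputs, IPs or bulk striatum, and 0 had an unadjusted p-value under 0.05 in any of the 3. edgeR called 1 of 15591 genes in the inputs (0.00641%), 4 of 15198 in the IPs (0.0263%) and 0 of 16020 in bulk (0%), while 869, 399 and 792 genes had an unadjusted p-value under 0.05, and limma-voom and the DESeq2 Wald test also called 0 of the 9. Among all genes limma-voom called 0 in bulk, where DESeq2 called 12 as higher and 5 as lower. WT and KO libraries of every one of the 9 genes overlapped in all 3 comparisons, where 4.03%, 1.55% and 3.08% of all genes did not.

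Over the 9 genes the median log2 fold change of KO over WT was -0.098 in inputs, -0.025 in IPs and -0.17 in bulk, and that of all genes was -0.0017, 0.0062 and 0.0013. The largest difference in the inputs was that of P2ry1, at -0.37 with a 95% interval from -0.91 to 0.16. Its WT inputs held 29.4, 11.9, 14.7 and 13.8 CPM and its KO inputs 12.8, 12.7, 12.8 and 13.96, so that the difference lay in WT replicate 1 and was -0.025 without that library. Nt5e likewise went from -0.098 (interval -0.47 to 0.28) to 0.11 without that library. Without it the inputs also gave 0.054 in place of 0.14 for Adora1, -0.16 in place of -0.083 for Adora2b, -0.061 in place of -0.10 for P2rx7 and 0.21 in place of 0.089 for Entpd2. Slc29a1 moved from -0.13 to -0.043, Entpd1 from -0.30 to -0.21 and Adk from -0.029 to -0.049, and 0 of the 9 were called. In the IPs, without WT replicate 1, the P2ry1 difference went from -0.25 to -0.058 and that of Adora2b from 0.19 to 0.069.

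Entpd1 was at -0.30 (interval -0.60 to 0.0030, adjusted p = 0.73 by edgeR) in the inputs, -0.025 (interval -0.19 to 0.14) in the IPs and -0.17 (interval -0.40 to 0.063) in bulk. Its KO inputs (29.0 to 34.8 CPM) lay within the range of the WT inputs (27.6 to 47.7 CPM). All 10 microglial markers were below 0 in the same comparison of inputs (median -0.24), with 0 of 10 called, and so were all 10 endothelial markers (median -0.31, from -0.48 to -0.098), with 0 of 10 called. In bulk the medians were -0.047 for the microglial and 0.20 for the endothelial markers. The part of these cells was not tested. Adk had the narrowest interval in inputs and in bulk, with -0.029 (interval -0.17 to 0.11) in inputs, 0.074 (interval -0.16 to 0.30) in IPs and 0.098 (interval -0.029 to 0.23) in bulk. The intervals of Adora2b ran from -0.46 to 0.30 in inputs, from -0.19 to 0.57 in IPs and from -0.50 to 0.11 in bulk, and those of Entpd2 from -0.26 to 0.44, from -0.29 to 0.49 and from -0.61 to 0.082. The intervals of Adora1 were -0.053 to 0.33, -0.072 to 0.36 and -0.36 to 0.099, and those of P2rx7 -0.37 to 0.16, -0.30 to 0.22 and -0.29 to 0.22. The intervals of Slc29a1 were -0.32 to 0.065, -0.42 to 0.13 and -0.40 to 0.21.

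In bulk striatum the WT libraries spread more than the KO libraries for several of these genes. Nt5e was at 24.3, 32.1, 41.7 and 21.4 CPM in bulk WT and at 25.1, 25.6, 25.7 and 26.0 in bulk KO. Slc29a1 was at 21.7, 29.8, 34.5 and 22.5 CPM in bulk WT and at 25.1, 26.5, 25.0 and 26.6 in bulk KO. In both genes replicates 2 and 3 were the high WT libraries, and the KO libraries sat inside the WT range. Adora2a was likewise highest in them (188, 261, 292 and 124 CPM in bulk WT). Replicate 1 of WT and of KO carry the same animal label, and without that pair 0 of the 9 genes were called.

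Enrichment itself was compared between genotypes by an interaction. It called 0 of the 9 genes and 0 of 16059 genes in all (0%; 203 genes had an unadjusted p-value under 0.05, and DESeq2 called 1 gene and limma-voom 0). The largest differences of KO minus WT were 0.28 for Entpd1 (interval -0.062 to 0.62) and 0.28 for Adora2b (interval -0.27 to 0.83), which were 0.16 and 0.23 without WT replicate 1, and the median of the 9 was 0.069 against 0.0074 for all genes.

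**Figure D4:**
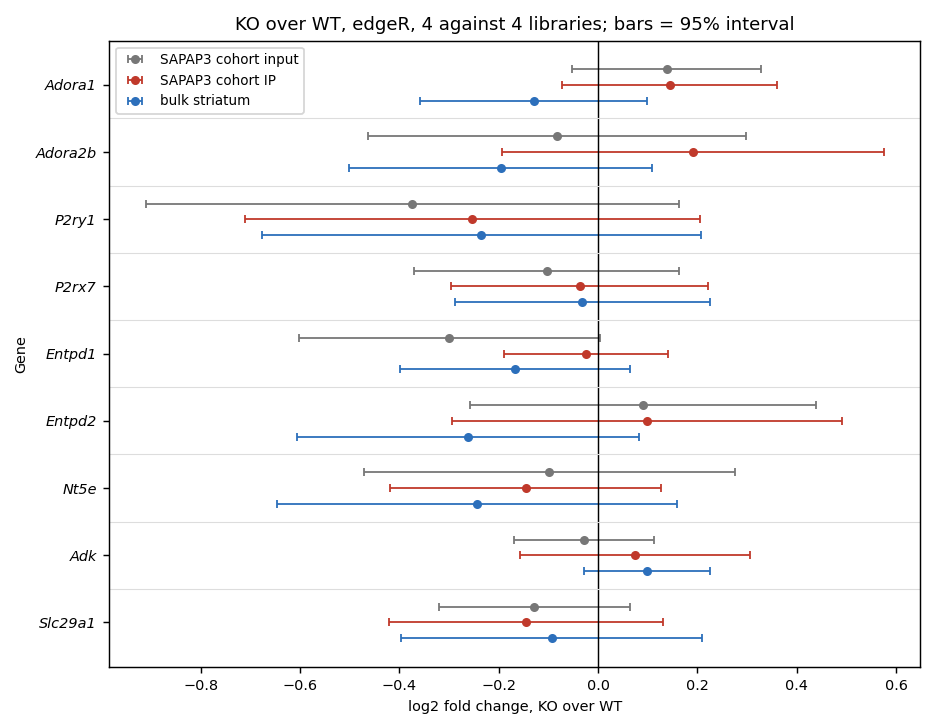
Points are log2 fold changes of KO over WT (edgeR, 4 against 4 libraries) for the 9 genes in SAPAP3 cohort inputs (grey), SAPAP3 cohort IPs (red) and bulk striatum (blue), with bars for the 95% interval. Every interval includes 0, and the widest is that of P2ry1 in the inputs (-0.91 to 0.16).

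A list of 43 other purine genes gives the setting of these results. In the Control cohort 35 of them were tested, 8 were called higher and 7 lower (background 13.4% and 13.5%), with a median log2 fold change of 0.12 against -0.025 for all genes. In WT of the SAPAP3 cohort 36 were tested, with 8 higher and 6 lower (background 10.9% and 12.1%). In KO 37 were tested, with 9 higher and 9 lower (background 12.3% and 11.5%). The Syn cohort had 39 tested, of which 0 were higher and 12 lower (background 0.420% and 15.8%). The median there was -0.40, against -0.0023 for all genes. This list too was chosen with earlier results of these data known.

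Among the receptors, P2ry2, which responds to UTP and ATP, rose by 2.47, 2.06 and 2.12 on the log2 scale in the Control, WT and KO IPs, and the channel subunit P2rx6 by 1.495, 1.63 and 1.72. The ADP receptors P2ry12 and P2ry13, the UDP receptor P2ry6, the UDP-sugar receptor P2ry14 and the A3 receptor Adora3 were lower in all 4 IPs, with log2 fold changes of -2.60, -2.17, -1.73 and -4.33 for P2ry12 and of -5.04, -4.21, -3.14 and -4.58 for P2ry13 in the Control, WT, KO and Syn cohorts. P2ry12 and P2ry13 are known microglial genes, and the microglial markers were lower in the same IPs. P2rx1 held at most 3 counts in each IP library of WT and of KO and was at least 9.14-fold and 5.27-fold lower there than in the inputs, with 3 counts per library as the floor.

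Adora2a, the receptor of the indirect-pathway neurons, was at 396, 397, 424 and 398 CPM in the Control inputs and at 136, 110, 136 and 126 in the IPs. It was at 190, 244, 156 and 178 CPM in the Syn inputs and at 297, 366, 265 and 312 in the Syn IPs. The direction was opposite in the 2 cohorts, without overlap in either, and the interaction was 2.34 (interval 2.01 to 2.68, adjusted p = 6.9e-10).

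Of the enzymes, Entpd5 rose by 1.55, 1.07 and 1.12, the cytosolic AMP nucleotidase Nt5c1a by 1.80, 1.09 and 1.26 and the purine nucleoside phosphorylase Pnp by 1.06, 1.37 and 1.65 in the Control, WT and KO IPs, while Alpl, the tissue-nonspecific alkaline phosphatase, rose by 1.39 in the Control and 1.21 in the KO IP and fell by 1.91 in the Syn IP. Ampd3, an AMP deaminase, and Enpp2 rose in WT (1.14 and 1.13) and KO (1.38 and 1.20). Summed oligodendrocyte markers also went from 6184 to 7182 CPM in the WT inputs to 7665 to 11145 in the WT IPs, and their part was not tested. Enpp1 and Enpp3, which also cleave nucleotides outside the cell, and the adenosine deaminase Ada fell in the Syn IP by 2.05, 1.97 and 1.46. Of the carriers and channels, the volume-regulated anion channel subunit Lrrc8a rose by 1.36, 1.28 and 1.36 in the Control, WT and KO IPs, and the carrier Slc29a3 rose by 1.15 in the Control IP and fell by 1.55 in the Syn IP. The vesicular nucleotide carrier Slc17a9 fell by 1.52 in the Control and by 1.63 in the KO IP, Panx2 fell by 1.06 in the KO IP, and the nucleoside carrier Slc28a2 fell by 1.62 in the KO IP and was at least 12.7-fold lower in the Syn IP. Between KO and WT, 39, 35 and 38 of the 43 genes were tested in inputs, IPs and bulk, and 0 were called. Of them, 4, 3 and 3 had an unadjusted p-value under 0.05 by edgeR. Among all genes tested these were 869 of 15591, 399 of 15198 and 792 of 16020.

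Across the 40 libraries, the genes whose log2(CPM + 0.5) followed each of the 9 most closely were found among 14814 genes. The points share cohorts and fractions, so the values of Pearson's r describe a likeness of pattern only. Adora2b was followed by Apoe, Psd2 and Car5b (r = 0.99 each), Entpd2 by Fam181b (0.986), Slc7a10 and D630003M21Rik, and Adk by Calu, Clu (0.99 each) and Acad11. P2rx7 was followed by Tln1 (0.984), Ripk1 and Arap1, and Entpd1 by Ccl6 (0.974), Samsn1 and Fcer1g. Nt5e was followed by Itgb1bp1 (0.929), Drd2 (0.927) and Dlx6, and Slc29a1 by Gpr52 (0.937), Slc9a5 and Ric8b. Adora1 was followed by Phospho1 (0.949), D1Ertd622e and Fmnl1, and P2ry1, whose leading coefficient was the lowest of the 9, by Isyna1 (0.893), Gucy1a3 and Slc35d3. The leading coefficients of these 2 genes and of Nt5e and Slc29a1 stayed below 0.95, and those of the other 5 leading genes were above 0.97.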

How the data were processed

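Striatal RNA was sequenced in 40 libraries of 10 groups with 4 libraries each. The authors deposited 1 table of read counts per gene symbol, and the submitters' processing notes name STAR, HTSeq and mm10, while the gene annotation and the strand setting of the counting are not given in the sources used here. Counts were used as deposited, and every library was assigned to its group from its own labels. Of the 24060 symbols, 99.2% received an exon length from RefSeq GRCm38.p6, and CPM and FPKM were computed from the counts and total counts per library (23438112 to 84109800).

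Low genes were filtered by filterByExpr, libraries were scaled by TMM, and groups were compared with the quasi-likelihood test of edgeR 4.0.16 (R 4.3.3) with Benjamini-Hochberg adjustment over all genes tested. Each comparison used only its own groups, and differences of enrichment were tested as interactions. Intervals are 95% intervals from the fitted standard error, and the floor of 3 counts per library covers counting error only. Alternatives were limma-voom (3.58.1), the DESeq2 Wald test (1.42.0), RLE scaling, total counts, no filter, FPKM above 5 in at least 4 libraries, the replicate number as a block and leaving out each library. The script was tested on simulated data.

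IPs and inputs of the same number deviated together (lowest correlation of deviations from the group means 0.248 over 16 pairs), so the numbers were taken to pair them, from the animal labels in the Control and SAPAP3 cohorts and from the titles in the Syn cohort. The main tests did not use this pairing and treated the libraries as independent. It entered only where the replicate number was a block. None of the 9 genes had a near-identical copy elsewhere in the genome (minimap2 2.31, with 95% identity across 50% of the exons as the minimum). Libraries of a group differed by more than counting noise (lowest chi-square per degree of freedom 3.83), so none was taken for a repeat deposit. The text names the 9 genes, most called genes of a list of 43 other purine genes, and for each of the 9 the 3 genes with the highest Pearson's r among genes of at least 1 CPM in at least 4 libraries. The members and lists were chosen with earlier results of these data known.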

Additional observations from a re-analysis of the deposited data

Results flagged for a closer look

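A single library stood apart from the other 3 of its group in 7 of 90 sets of 4 values, where the gap to its nearest neighbour took up more of the group's range than Dixon's critical value allows. Chance alone marks about 1 in 20 such sets. For P2ry1 these were replicate 1 of the WT inputs (29.4 CPM against 11.9 to 14.7, gap 0.840) and replicate 4 of the KO inputs (13.96 against 12.7 to 12.8, gap 0.867). For Slc29a1 it was again replicate 1 of the WT inputs (30.9 CPM against 23.3 to 24.5, gap 0.848). Entpd2 was low in replicate 2 of the WT IPs (24.3 CPM against 35.0 to 35.7, gap 0.942), and Entpd1 in replicate 1 of bulk KO (22.4 CPM against 25.3 to 25.5, gap 0.923). Adk was low in replicate 1 of the KO IPs (123 CPM against 157 to 162, gap 0.871) and in replicate 4 of the Control inputs (52.6 CPM against 53.4 to 53.5, gap 0.917).

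The log2 enrichment of 8 genes differed between the Syn and the Control cohort by edgeR's interaction test. The difference of Syn minus Control was -3.12 for Entpd2, -3.10 for Adora2b, -2.35 for P2rx7, -1.49 for Adk, 1.29 for Nt5e, 1.18 for P2ry1, 0.86 for Slc29a1 and 0.29 for Adora1, which was not called with the FPKM filter (0.16, adjusted p = 0.13). The cohorts also differ in sex, and these differences cannot be told apart from that of the tag.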

How the results depend on the processing

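Of the values for single genes, 492 kept their direction and call under the alternative settings, while 11 changed sign, 6 gained a call and 3 lost one. A further set of fits left out 1 library, or replicate 1 of both groups together as described below. There 761 kept both, 46 changed sign, 8 gained a call and 4 lost one. With the replicate number as a block, the counts for all genes were 2084 higher and 2089 lower (Control), 71 and 2574 (Syn), 1711 and 1916 (WT), and 1906 and 1821 (KO), and 6234 and 6021 for Syn minus Control. Beyond the adjusted p-values given above for Adora1, Nt5e and Slc29a1, the block changed no call among the 9 genes.

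Scaled to total counts, the members called lower were 2 (Control), 3 (Syn) and 1 (KO), and 15 of all genes were higher in the Syn IP. P2ry1 changed sign in WT (-0.17) and KO (-0.030), as did Adora1 (-0.064) and Adk (-0.055) in Syn, and P2rx7 lost its call in Control (0.78) and KO (0.85). The share of called genes that were higher went from 49.8% to 37.2% (Control), 2.58% to 0.48% (Syn), 47.4% to 36.4% (WT) and 51.6% to 38.8% (KO). The group means of CPM were also scaled by TMM over all 40 libraries. Of them 60 moved by less than the SD of their group and 30 by more, so the order of neighbouring groups depends on the scaling. The highest Adora1 mean was then that of bulk WT (199.5, against 197 in the KO inputs).

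With the FPKM filter, which tests fewer genes, all genes called higher and lower were 1005 and 697 (Control), 3 and 504 (Syn), 822 and 448 (WT), 938 and 485 (KO) and 3623 and 3549 (Syn minus Control), and 1 was lower in KO IPs. Members called lower were 2 in Control and 0 in Syn, where P2rx7 was not tested. Signs turned for Adora1 (-0.036) and Adk (-0.028) in Syn, for Entpd1 in Syn minus Control (-0.050) and for Slc29a1 in KO minus WT (0.0022), and Adora1 lost its call in Syn minus Control (0.16). Slc29a1 also turned with RLE (0.0032) and DESeq2 (0.0030), and Entpd2 with limma-voom (-0.0044). DESeq2 called 3 genes higher and 5 lower in KO inputs, 2 and 6 in KO IPs, 12 and 5 in bulk KO, and 1 higher in KO minus WT. The cause was not tested.

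Leaving out 1 library gave 1 to 2 members lower in Control (2 without input 4), 1 to 3 in Syn (3 without input 3 or IP 2, where Entpd1 and Entpd2 passed), and 57 to 104 of all genes higher in Syn (104 without input 2). All genes lower were 0 to 1 in KO inputs (0 without KO input 2, 3 or 4), 0 to 2 in KO IPs (0 without WT IP 4, which also left 0 of 0 to 1 higher) and 0 to 1 in bulk KO (1 without WT 4). P2ry1 in WT ranged from -0.19 to 0.37. For KO over WT the ranges that crossed 0 were -0.18 to 0.022 (Adora2b), -0.19 to 0.11 (Nt5e) and -0.070 to 0.0072 (Adk) in inputs, -0.11 to 0.060 (P2rx7) and -0.044 to 0.20 (Entpd2) in IPs, and -0.15 to 0.045 (P2rx7) and -0.18 to 0.048 (Slc29a1) in bulk. For KO minus WT they were -0.059 to 0.094 (Adora1), -0.22 to 0.31 (P2ry1), -0.011 to 0.18 (P2rx7), -0.13 to 0.11 (Entpd2), -0.25 to 0.077 (Nt5e) and -0.10 to 0.092 (Slc29a1). None of these was called.

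Leaving out WT replicate 1 on both sides, and replicate 1 of both bulk genotypes, was chosen after seeing the data. The former gave KO minus WT values of -0.033 (P2ry1), -0.045 (P2rx7) and -0.082 (Entpd2), and the latter 0.047 for P2rx7 in bulk. The 95% intervals given show the precision that 4 libraries a group allow, and are not limits of what the adjusted test would call.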
